A study of Mus musculus with 6 samples.

Results

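The 42 genes described here encode the cyclins, kinases, checkpoint proteins, motors and kinetochore proteins that carry a cell through mitosis. They were chosen by gene symbol from the authors' comparison table of 22320 genes, and all 42 symbols were found. Messenger RNA came from whole mouse testes taken on postnatal day 1.5. Arid4bSCKO mice carried 1 null and 1 floxed allele of Arid4b together with an Amh-cre transgene, whose promoter drives Cre recombinase in Sertoli cells, which line the testis cords and nurse the germ cells. Control mice carried 1 wild-type and 1 floxed allele with the same Amh-cre, so both groups had the floxed allele and Cre, and the null allele was present in every cell of the Arid4bSCKO mice. All animals were hybrids of C57BL6/J and 129/SvEv, and each group had 3 pools of 4 testes. The table holds the authors' mean per group and their test, so every level below is a mean over 3 pools, and values of single pools were not analysed here.

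Cells divide by switching cyclin-dependent kinase 1 on and off. Cyclins A and B activate the kinase, Aurora and Polo kinases build the spindle, kinesin motors move and separate the chromosomes, and the spindle assembly checkpoint holds the cell until each kinetochore is attached. The anaphase promoting complex then marks cyclin B and securin for destruction, and the cell divides. In the newborn mouse testis Sertoli cells and cells between the cords are dividing, whereas many germ cells are still in mitotic arrest. Most mitotic genes are transcribed late in the cell cycle through a short element near the start site, the cell cycle genes homology region or CHR, often beside CCAAT boxes bound by NF-Y, and are held back in resting cells by a complex that contains a retinoblastoma family protein. ARID4B was described as a binding partner of the retinoblastoma protein.

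The promoters of the members carried these letters more often than the promoters of other genes. RefSeq windows on GRCm38.p6, from 250 bases before to 50 after the start, matched 33 of the 42 members. Ccnd1, Ccnd2, Ccna2, Cdc25c, Foxm1, Tpx2, Aurkb, Incenp and Kif20a had no entry. The CHR core TTTGAA, searched on both strands, was found in 24 of the 33, or 72.7%, against 14.7% of 13148 genes of the table that were tested and had a window. At least 1 CCAAT was found in 78.8% of members and 42.3% of those genes, and both motifs together in 63.6% and 7.06%. An E2F site (TTTGGCGC, TTTCGCGC or TTTCCCGC) was found in 1 member, Cdk1, or 3.03%, against 3.44%. Motifs of different kinds overlapped at 1 place in the member windows. Over all 32851 windows of the table, of the same length, the CHR core stood in 17.9%, CCAAT in 37.4%, both in 6.95% and an E2F site in 1.84%. A match shows the letters only, and binding was not measured.

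**Figure D1:**
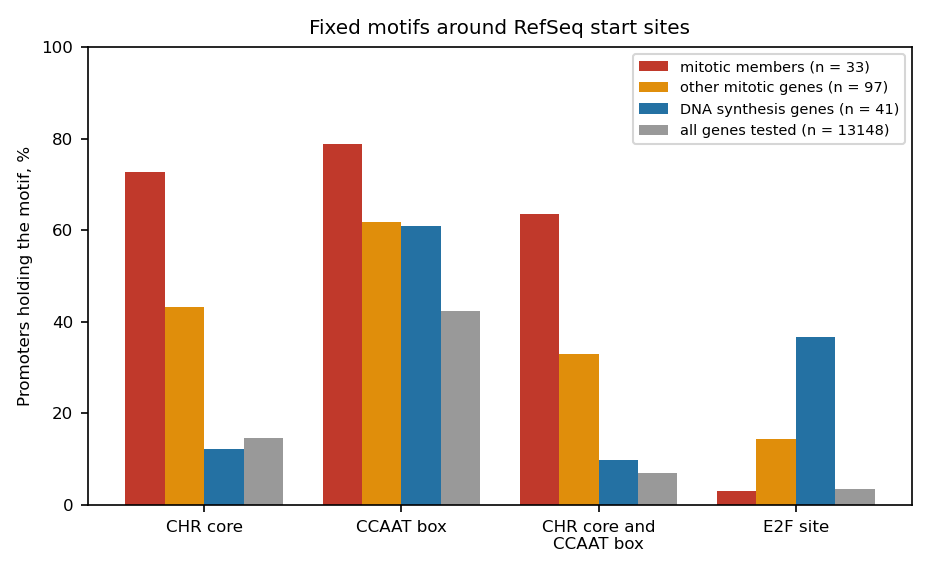
Share of promoters (vertical axis, percent) that hold the CHR core, a CCAAT box, both, or an E2F site in the window around the RefSeq start site, for the mitotic members, the other mitotic genes, the DNA synthesis genes and all genes tested. The CHR bars stand at 72.7% for members and 12.2% for DNA synthesis genes, and the E2F bars at 3.03% and 36.6%.

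Stretches upstream of 6 members are given below, 5′ to 3′ on the strand of the gene and ending at the last base before the start site, with CHR cores, CCAAT boxes and E2F sites in capitals on either strand (CCAAT on the other strand reads ATTGG and TTTGAA reads TTCAAA). Cdc25b and Kif23 are shown as the members called lower that had a window, Top2a as the member just outside the threshold, and Cdk1, Cdc20 and Ube2c as members whose difference was smaller than the spread between pools or close to it. They lie at chr11:99024190-99024439 (Top2a, minus strand), chr2:131186828-131186947 (Cdc25b, plus), chr9:61946800-61946919 (Kif23, minus), chr10:69352913-69353072 (Cdk1, minus), chr4:118437344-118437463 (Cdc20, minus) and chr2:164769809-164769928 (Ube2c, plus).
Top2a: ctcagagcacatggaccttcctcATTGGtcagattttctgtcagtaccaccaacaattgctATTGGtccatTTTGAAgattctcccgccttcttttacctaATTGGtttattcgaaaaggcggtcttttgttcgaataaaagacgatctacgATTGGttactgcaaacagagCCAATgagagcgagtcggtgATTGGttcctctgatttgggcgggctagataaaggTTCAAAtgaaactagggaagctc
Cdc25b: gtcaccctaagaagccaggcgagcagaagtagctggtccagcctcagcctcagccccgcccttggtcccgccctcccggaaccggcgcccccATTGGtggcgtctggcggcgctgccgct
Kif23: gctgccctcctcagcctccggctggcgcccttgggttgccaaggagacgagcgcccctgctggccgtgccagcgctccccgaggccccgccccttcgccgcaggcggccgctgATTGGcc
Cdk1: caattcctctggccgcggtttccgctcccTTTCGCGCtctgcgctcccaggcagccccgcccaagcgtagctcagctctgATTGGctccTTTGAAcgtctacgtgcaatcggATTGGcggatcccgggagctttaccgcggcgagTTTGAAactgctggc
Cdc20: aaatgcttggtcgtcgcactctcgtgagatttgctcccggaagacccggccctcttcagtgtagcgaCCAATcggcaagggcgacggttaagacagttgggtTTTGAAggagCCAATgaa
Ube2c: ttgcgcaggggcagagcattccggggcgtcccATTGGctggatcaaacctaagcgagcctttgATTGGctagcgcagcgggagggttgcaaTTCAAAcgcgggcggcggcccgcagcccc
The Top2a stretch holds 6 CCAAT boxes and 2 CHR cores, the nearer core starting 23 bases before the start site. Cdk1 has CHR cores at 71 and 15 bases and its E2F site at 131, Cdc20 a core at 18 and Ube2c a core at 29. Cdc25b has a CCAAT box at 28 and no CHR core in its window. In Kif23 the CCAAT box begins 7 bases before the start, and its CHR core lies after the start, outside the printed stretch.

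Across the whole set the differences between the groups were small. Of the 42 members, 33 had a lower mean in Arid4bSCKO and 9 a higher one, and the median difference was -0.13 on the log2(normalized count + 1) scale, against -0.01 over the 8308 genes whose mean level lay in the range of the members (8.90 to 13.94). A negative difference was found for 78.6% of members and 51.4% of those genes. Differences ran from -0.48 for Kif23 to 0.28 for Cenpa. Summed over the members, normalized counts in Arid4bSCKO came to 89.5% of control. All members were read in the same pools, so their shared sign is not 42 separate observations. In whole testes fewer dividing cells and less RNA per cell cannot be told apart.

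In the authors' deposited table, the FDR was below 0.05 for 0 of 42 members, against 0.26% of all genes (0.121% lower). By its unadjusted p below 0.05, members called lower numbered 2, Cdc25b and Kif23, and 11.1% of all genes were lower. Pttg1 was the 1 member higher by that p, and 9.86% of all genes were. A moderated limma test, which steadies the spread of each gene with that of genes at a similar level and adjusts by Benjamini-Hochberg over 19095 genes, called 4 members lower, or 9.52%, and 0 higher. Over all 19095 genes it called 6.46% lower and 7.37% higher, and over genes in the members' level range 9.89% lower and 11.0% higher. The share of members called lower was therefore close to the background at their level. Below, "called" refers to this moderated test. When the moderation used neither the level trend nor robust weights, it called 0 members, with 0.382% of all genes lower and 0.859% higher. With differences centred on a trend over transcript length it called 2 members lower, Kif23 and Aurkb, with 4.48% and 8.47% of all genes, and the split over all genes moved from 1233 lower and 1408 higher to 796 lower and 1506 higher. Centred on the median it called 2 members, Kif23 and Cdc25b, with 5.18% and 8.57% of all genes. With no minimum level it called 5.25% of all genes lower and 6.16% higher, with a minimum of 5 counts 7.53% and 8.52%, and centred on a trend over level 5.96% and 7.86%.

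**Figure D2:**
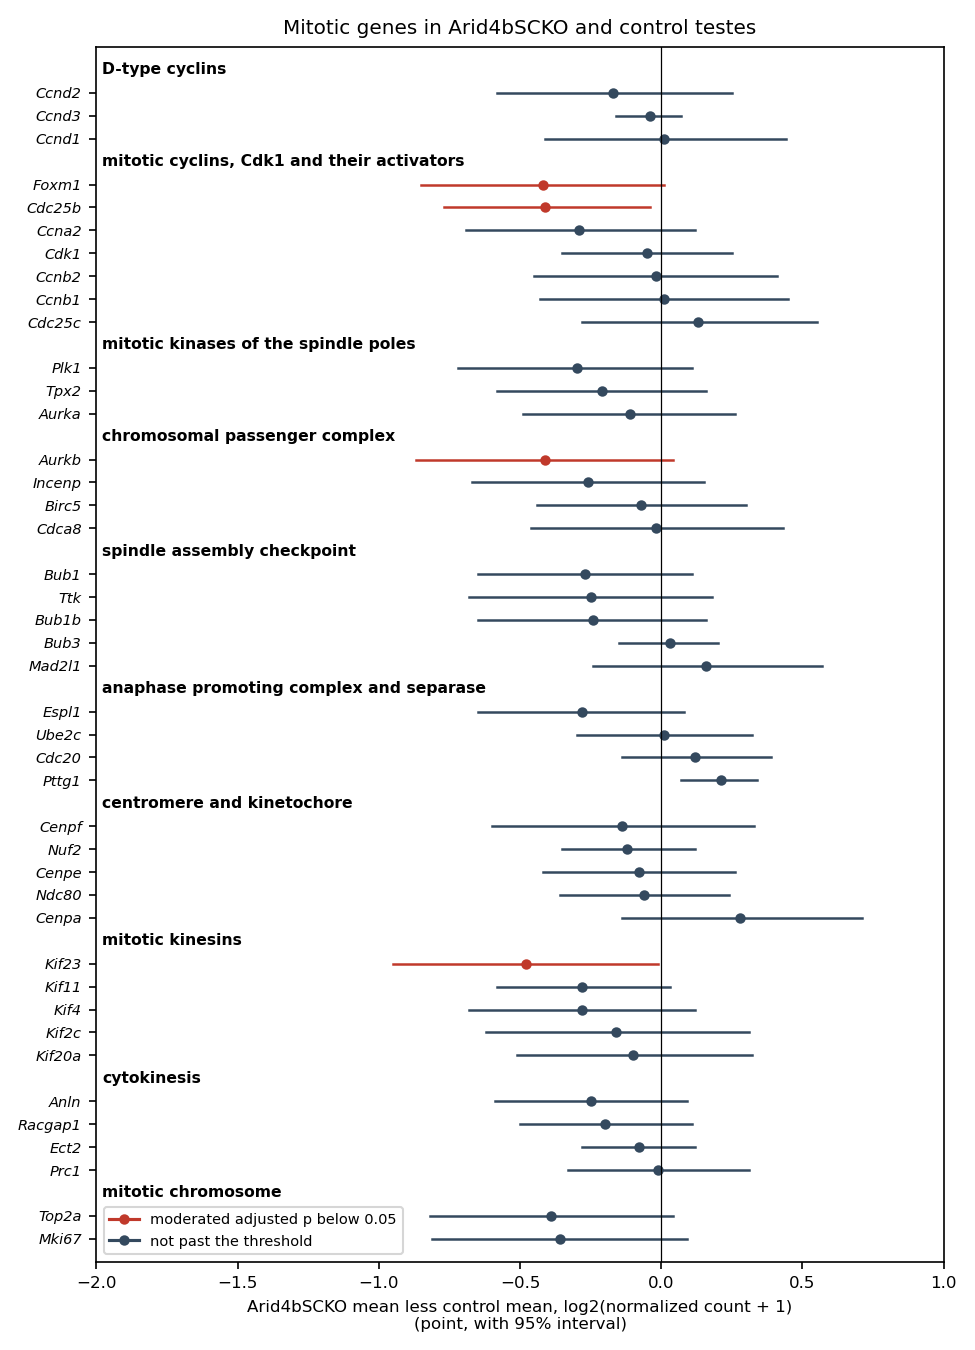
Difference between the group means on the log2 scale (horizontal axis, Arid4bSCKO less control) for each of the 42 members, grouped by role; points are differences, bars are 95% intervals and red marks the members called, with intervals from the deposited p-value with 3 pools a group. Points run from -0.48 (Kif23) to 0.28 (Cenpa), and 39 of the 42 bars cross 0.

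The labels were checked on the targeted gene. Arid4b stood at 35.1% of control, with mean log2 levels of 8.68 and 10.19 and a moderated limma adjusted p of 2.23e-05. Its FDR in the authors' deposited table was 0.0535. Sertoli cell markers that define the tissue, such as Sox9 and Amh, had control levels of 10.67 and 14.25, and none of the 12 Sertoli or 12 germ cell markers was at 0. In Arid4bSCKO, Sox9 and Amh stood at 111% and 32.4% of control, and neither was called. Of the 12 Sertoli cell markers 10 had negative differences. Genes seen in 1 library only gave the value of a read, 1.2 to 1.45 normalized counts, and from it a depth of 16.2 to 19.0 M (M, mega) reads per library.

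None of the D-type cyclins, which start the cycle by releasing cells from the retinoblastoma block, was called. Ccnd2 (chromosome 6, 127125709 to 127151048, minus strand, mm10), whose loss leaves mice with small testes, had the highest level of all members, with means of 13.86 in Arid4bSCKO and 14.02 in control. Its difference of -0.17 had a 95% interval of -0.58 to 0.25. Per kilobase of transcript Ccnd2 stood at 2630 normalized counts in control, Ccnd3 at 2090 and Ccnd1 at 133, the first, second and last place among the 42. Ccnd3 differed by -0.04 (-0.16 to 0.07) with the smallest spread between pools of all members, an SD of 0.05. Ccnd1 differed by 0.01 (-0.41 to 0.44). The intervals of Ccnd2 and Ccnd1 ran from 66.7% to 119% and from 75.2% to 136% of control.

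None of cyclins A and B and their kinase was called. Cdk1, the kinase that drives entry into mitosis, had means of 12.08 and 12.14, a difference of -0.05 (95% interval -0.35 to 0.25). Ccnb1 and Ccnb2, the B-type cyclins that activate it, stood at 0.01 (-0.43 to 0.45) and -0.02 (-0.45 to 0.41). Ccna2, the A-type cyclin of S phase and early mitosis, was at -0.29, beyond its SD between pools of 0.18, with an interval of -0.69 to 0.12 that included 0. Their intervals leave room for differences of up to about these bounds, so equal levels are not shown.

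Cdc25b and Foxm1 were called lower, and Cdc25c was not called. Cdc25b (chromosome 2, 131186948 to 131198511, plus strand), a phosphatase that removes inhibitory phosphate from Cdk1, had means of 9.79 in Arid4bSCKO and 10.20 in control. It fell to 75.5% of control, a difference of -0.41 (-0.77 to -0.04), with a deposited p of 0.0367 and a moderated limma adjusted p of 0.0337 (0.0327 to 0.142 over 6 alternatives). Its relative Cdc25c was at 0.13 (-0.28 to 0.55). Whether Cdc25b and Cdc25c differed from each other was not tested. Foxm1 (chromosome 6, 128362994 to 128375886, plus strand), a transcription factor of late cell cycle genes, had means of 10.59 and 11.01. It stood at 74.8% of control, -0.42 (-0.85 to 0.01), with a deposited p of 0.0537. Its moderated limma adjusted p was 0.0375 (0.0366 to 0.165 over the alternatives). Neither Cdc25b nor Foxm1 was called after centring on the length trend (moderated adjusted p = 0.0555 and 0.11). Centred on the median of all genes, Foxm1 was not called either (moderated adjusted p = 0.0526). Of the 6 alternatives, 4 called Cdc25b and 3 called Foxm1.

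The kinases of the spindle poles all had negative differences, and none was called. Plk1, the Polo kinase of mitotic entry and spindle assembly, was at -0.30 (95% interval -0.72 to 0.11). Aurka, the Aurora kinase of the centrosomes, was at -0.11 (-0.49 to 0.26), and Tpx2, which binds and activates it on the spindle, at -0.21 (-0.58 to 0.16).

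In the chromosomal passenger complex, which corrects faulty attachments and later guides cytokinesis, the kinase subunit was the member called. Aurkb (chromosome 11, 69045643 to 69051662, plus strand) had means of 10.36 and 10.78 and stood at 75.0% of control, -0.41 (-0.87 to 0.04). The deposited p was 0.063. Its moderated limma adjusted p was 0.0448 (0.0381 to 0.179 over the alternatives), and it remained called with the length trend removed but not when differences were centred on the median of all genes (moderated adjusted p = 0.0623). The scaffold gene Incenp was at -0.26 (-0.67 to 0.15). Birc5, which encodes survivin, and Cdca8, which encodes borealin, were at -0.07 (-0.44 to 0.30) and -0.02 (-0.46 to 0.43). Whether Aurkb differed from its partners was not tested.

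Spindle assembly checkpoint genes pointed in both directions and none was called. The kinase genes Bub1 and Ttk stood at -0.27 (95% interval -0.65 to 0.11) and -0.25 (-0.68 to 0.18), and Bub1b, which encodes the BUBR1 subunit of the checkpoint complex, at -0.24 (-0.65 to 0.16). Bub3, its binding partner, was at 0.03 (-0.15 to 0.20) with an SD between pools of 0.08. Mad2l1, which encodes the MAD2 inhibitor of CDC20, was at 0.16 (-0.24 to 0.57).

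Genes of the exit from mitosis had the only positive median of the roles, 0.07. Pttg1 (chromosome 11, 43420248 to 43426248, minus strand) encodes securin, which holds separase inactive, and had means of 9.92 and 9.71. Its difference of 0.21 (0.07 to 0.34) had a deposited p of 0.0145, the smallest of the 42, at an SD between pools of 0.06. The moderated limma adjusted p was 0.144, and Pttg1 was not called under any of the 6 alternatives. Cdc20, the activator of the anaphase promoting complex, was at 0.12 (-0.14 to 0.39), and Ube2c, the ubiquitin-conjugating enzyme of that complex, at 0.01 (-0.30 to 0.32). Espl1, which encodes separase itself, was at -0.28 (-0.65 to 0.08), on the other side from its inhibitor. None of these 4 genes was called. With the trend over transcript length removed, Pttg1 and Cdc20 stood at 0.16 and 0.09, and Ube2c and Espl1 at -0.12 and -0.15. The positive median was thus not kept apart from transcript length.

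Centromere and kinetochore genes were not called either. Cenpa, the histone H3 variant that marks the centromere, had the highest difference of the members at 0.28 (95% interval -0.14 to 0.71), with means of 11.25 and 10.96. The microtubule-binding genes Ndc80 and Nuf2 were at -0.06 (-0.36 to 0.24) and -0.12 (-0.35 to 0.12). Cenpe, a kinetochore motor, was at -0.08 (-0.42 to 0.26) and Cenpf, a large outer kinetochore protein, at -0.14 (-0.60 to 0.33).

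All 5 mitotic kinesins had negative differences, with a median of -0.28. Kif23 (chromosome 9, 61917278 to 61946799, minus strand), the motor of the central spindle that works in cytokinesis, had means of 10.80 in Arid4bSCKO and 11.28 in control. It fell to 71.7% of control, -0.48 (95% interval -0.95 to -0.01), with a deposited p of 0.0475 and a moderated limma adjusted p of 0.0273 (0.0271 to 0.149 over the alternatives). Kif23 was called in 5 of 6 alternatives, the exception being the moderation with neither level trend nor robust weights. Kif11, which slides spindle poles apart, was at -0.28 (-0.58 to 0.03), and Kif4, a chromosome-bound motor, at -0.28 (-0.68 to 0.12). Kif20a and Kif2c were at -0.10 (-0.51 to 0.32) and -0.16 (-0.62 to 0.31). Kif23, Kif2c and Cenpf had the largest standard errors of the set, each 0.17. How reads shared between Kif4 and its pseudogene were counted is not given in the sources used here.

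None of the cytokinesis genes was called, and all 4 intervals held 0. Racgap1, the partner of KIF23 in the centralspindlin complex, was among the 3 members with the highest mean level, with means of 12.07 and 12.27 and a difference of -0.20 (95% interval -0.50 to 0.11). Ect2, the exchange factor that centralspindlin recruits, was at -0.08 (-0.28 to 0.12), Anln at -0.25 (-0.59 to 0.09) and Prc1, which bundles midzone microtubules, at -0.01 (-0.33 to 0.31).

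Top2a and Mki67, markers commonly used to count dividing cells, were not called, and Top2a lay just outside the threshold. Top2a (chromosome 11, 98992947 to 99024189, minus strand), the topoisomerase that untangles chromosomes, had means of 12.93 and 13.31 and stood at 76.5% of control, -0.39 (95% interval -0.82 to 0.04). Its moderated limma adjusted p was 0.0504, with 0.0335 to 0.189 over the alternatives, 2 of which called it. Mki67, which encodes the Ki-67 antigen, had means of 11.81 and 12.17 and stood at 77.8% of control, -0.36 (-0.81 to 0.09). The moderated limma adjusted p of Mki67 was 0.0702, with 0.0634 to 0.324 over the alternatives, 0 of which called it. With the length trend removed the differences of Top2a and Mki67 were -0.27 and -0.20, with moderated adjusted p-values of 0.166 and 0.324.

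The other genes of mitosis were taken from a list of 121 written out by function. Their median difference was -0.16, and 17, or 14.0%, were called lower and 1 higher. Over all 19095 genes 6.46% were called lower and 7.37% higher, and over genes in the members' level range 9.89% and 11.0%. Condensin, cohesin and shugoshin genes, which fold and hold chromosomes together, all had negative differences (19 of 19, median -0.28). Of these, 8 were called lower, or 42.1%, among them the cohesin subunit genes Stag2 at -0.37 (95% interval -0.54 to -0.21) and Rad21 at -0.37 (-0.56 to -0.18). The share called lower in the other roles of the list ran from 5.71% (spindle, kinesins and centrosome) to 10.7% (kinetochore and centromere). The excess of 14.0% over the 9.89% in the members' level range thus came mostly from the condensin, cohesin and shugoshin group. Casc5, a kinetochore scaffold gene, was at -0.48 (-0.67 to -0.29), Kntc1, a checkpoint gene, at -0.54 (-0.96 to -0.13), and the kinesin gene Kif24 at -0.55 (-0.80 to -0.30), all called. Cdc16, a subunit gene of the anaphase promoting complex, was the gene called higher, at 0.47 (0.18 to 0.75). Of the 17 called lower, 10 had transcripts of 4 kb or more. With the length trend removed 6 of the 121 were called lower and 2 higher, beside 4.48% and 8.47% of all genes. In the condensin, cohesin and shugoshin group 2 were called lower in that setting. Of the genes named, Stag2 and Kif24 lost the call there (moderated limma adjusted p = 0.0637 and 0.0609). With neither level trend nor robust weights 0 of the 121 were called.

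DNA synthesis genes, which act earlier in the same cycle, had a lower median and a larger share called. Of 50 such genes, 46 had a negative difference, the median was -0.29 and 19, or 38.0%, were called lower, with 0 higher. The shares over all genes were 6.46% lower and 7.37% higher, and in the members' level range 9.89% and 11.0%. The replication licensing gene Cdc6 was at -0.87 (95% interval -1.16 to -0.59), or 54.6% of control, and the helicase genes Mcm7, Mcm2 and Mcm3 at -0.46 (-0.63 to -0.28), -0.52 (-0.82 to -0.22) and -0.56 (-0.92 to -0.19). Chaf1a, a histone chaperone gene, was at -0.55 (-0.89 to -0.22). With the length trend removed 19 were called lower, not all of them the same genes, since Lig1 and Rfc1 lost the call and Pole2 and Pold2 gained it (named after their values were seen). With neither level trend nor robust weights 1 of the 50 was called, Cdc6, with a moderated limma adjusted p of 0.0452. The promoters of these genes held an E2F site in 36.6% and the CHR core in 12.2% of 41 windows. The difference between the lists was not tested, and both come from the same pools.

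**Figure D3:**
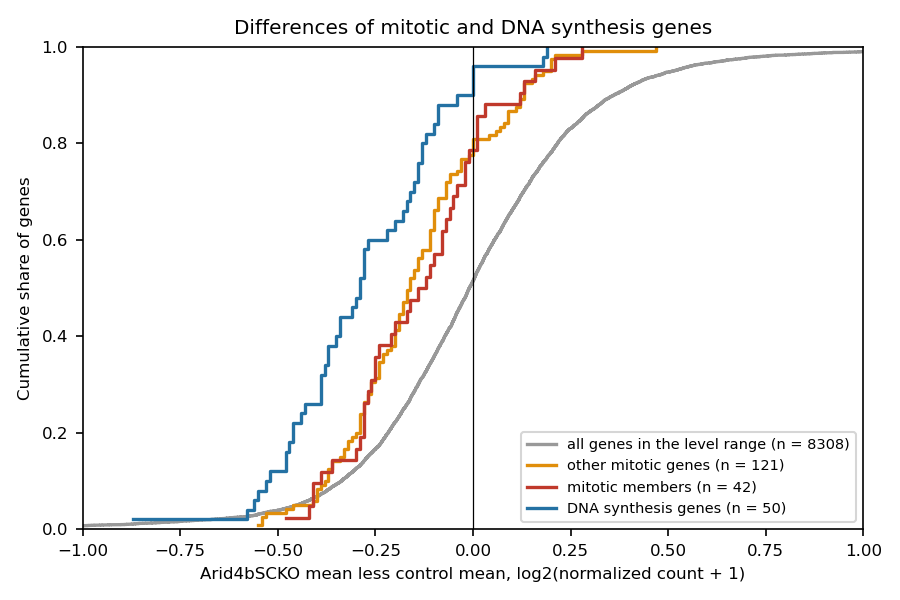
Cumulative share of genes (vertical axis) by the difference between the group means (horizontal axis, log2, Arid4bSCKO less control) for the 42 members, 121 other mitotic genes, 50 DNA synthesis genes and 8308 genes in the members' level range; values outside -1 to 1 are not drawn. The curves for both mitotic lists lie close together (medians -0.13 and -0.16), and that for DNA synthesis lies further to the left (median -0.29).

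The spread between pools was wider for most members than for the median gene in their level range, a difference that was not tested. The SD between pools that the deposited p-value implies had a median of 0.18 for members, with quartiles of 0.14 and 0.19, and 0.11 for all genes in their level range, with quartiles of 0.08 and 0.16. Of the 42 members, 37 lay above the median of those genes, taken over the whole range and not matched to each member's level. For the DNA synthesis genes and the other mitotic genes the median SD was 0.13. In 20 members the difference between the groups was smaller than this SD. A larger difference was not thereby resolved, since the 95% intervals of 39 members held 0. The smallest spreads were those of Ccnd3, Pttg1, Bub3 and Ect2, at 0.05, 0.06, 0.08 and 0.09. The 95% intervals reached from -0.95 to 0.71 over the set, so changes of 1 log2 unit in either direction lay outside the interval of all 42 members.

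**Figure D4:**
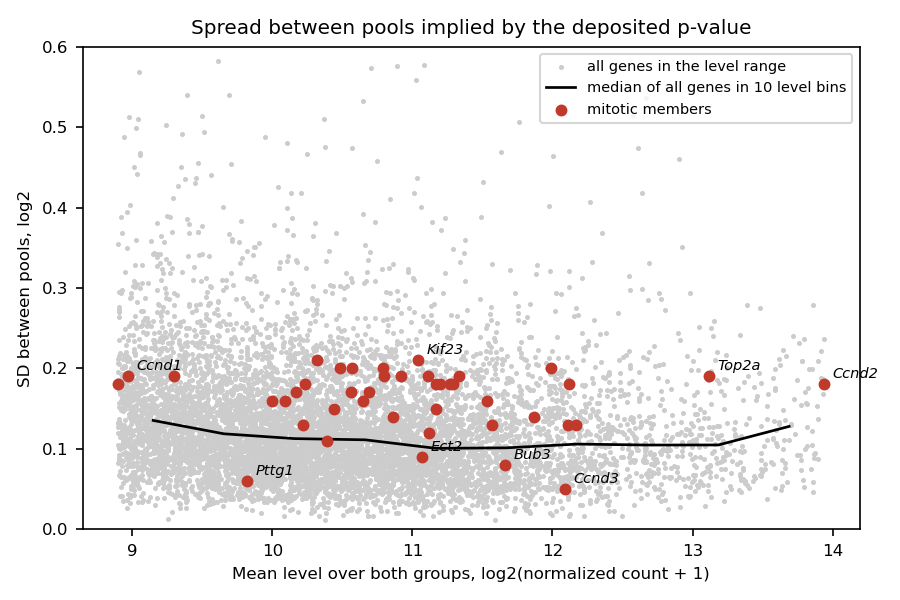
SD between pools on the log2 scale (vertical axis) against mean level (horizontal axis, log2(normalized count + 1)) for the 42 members and all 8308 genes in their level range; values above 0.6 are not drawn, and the line is the median in level bins. Most members lie above the line, with a median of 0.18, and Ccnd3, Pttg1 and Bub3 lie below it.

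The differences of the members followed transcript length. The 13 members with transcripts of 4 kb or more all had negative differences, with a median of -0.25, whereas 6 of the 10 under 2 kb had positive ones, with a median of 0.07. The 19 members between those lengths had a median of -0.16. Over the 42 members the rank correlation between length and difference was -0.55, and over the 8255 genes with a length in their level range it was -0.37, all read in the same libraries. The 5 highest differences were those of Cenpa, Pttg1, Mad2l1, Cdc25c and Cdc20, all with transcripts under 2 kb, and Mki67, Top2a and Foxm1 are long. Among all genes in that level range the median was 0.14 under 2 kb and -0.11 from 4 kb. With the trend over length removed the median of the members was -0.10 and 29 of 42 differences were negative. The source of the length trend was not tested.

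**Figure D5:**
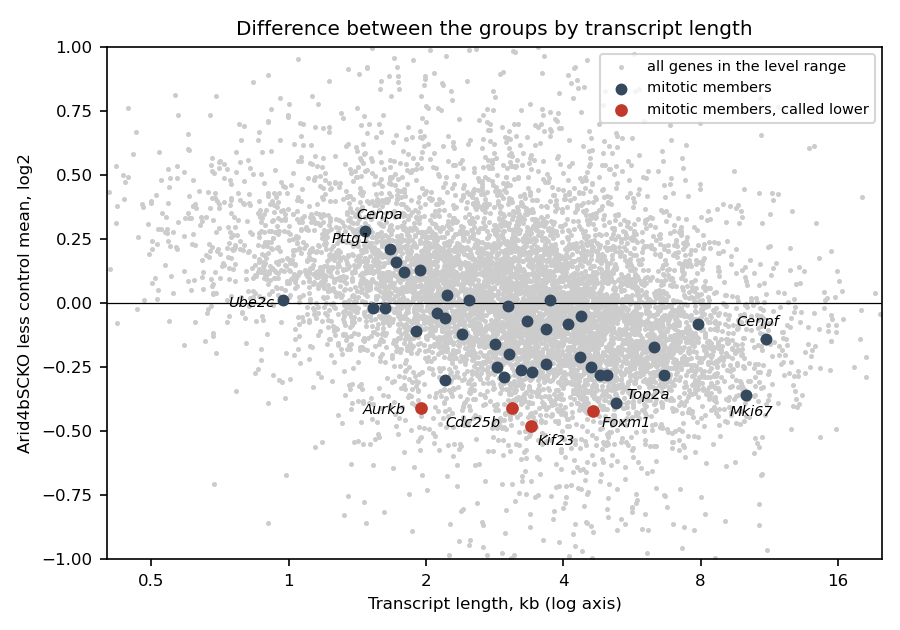
Difference between the group means (vertical axis, log2, Arid4bSCKO less control) against transcript length (horizontal log axis, kb) for the 42 members and the genes in their level range; points outside the axes are not drawn. All 13 members of 4 kb or more lie below 0, and 6 of the 10 members under 2 kb lie above it.

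Among members with a promoter window, the CHR core was compared with the differences as a description, with no test. The 24 with the core had a median of -0.15 (range -0.48 to 0.28) and the 9 without it a median of -0.07 (range -0.41 to 0.21). Kif23 was the called member with the core and Cdc25b the called member without it, and Aurkb and Foxm1 had no window.

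Markers of several cell types differed between the same groups. The counts below stand beside 6.46% of all genes called lower and 7.37% called higher. Of 12 Sertoli cell markers 7 were called lower and 1 higher, and their summed level was 70500 normalized counts in Arid4bSCKO and 114000 in control, or 61.9%. Of 12 germ cell markers 2 were called lower, with summed levels of 7990 and 10400, or 76.8%. Macrophage markers had 9 of 10 called higher, with summed levels of 6960 and 3110, and 6 of 10 immediate-early genes, which respond to stress and handling, were called higher, with summed levels of 9510 and 6220. No marker of these lists was at 0 in either group. Of 8 Leydig cell markers 0 were called in either direction, and they summed to 90.9% of control (45500 and 50100 normalized counts). That lower sum rests mostly on Hsd17b3, with 2710 normalized counts in Arid4bSCKO and 6190 in control. In all, 6 of the 8 differences were negative and 2 positive, with a median of -0.08. Of 8 endothelial markers 0 were called lower and 1, Robo4, higher, with a sum of 89.8%. Myoid cell markers had 6 of 6 positive differences, 1 of them called (Tagln), and summed to 121% of control. Stromal markers had 1 of 8 called lower (Nr2f2) and 1 higher (Lum), with a sum of 106%. Erythroid and mesonephric or epididymal markers had 0 called of 6 and of 5, with sums of 152% and 110%. The second sum rests mostly on Epcam, with 342 of 510 normalized counts in control. Epcam and Cst11 stood at 127% and 116% of control, and Pax2, Pax8 and Cdh16 at 68.0%, 67.7% and 67.0%. The median difference of that list was -0.56. The part of these differences in the mitotic values was not tested.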

How the data were processed

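Poly(A) RNA of 3 pools of testes per group was sequenced as stranded paired reads of 50 bases, per the labels' protocols. The submitters' processing notes list STAR 2.4 and mm10. How reads were counted and normalized, with which annotation, and whether strand was used, is not given in the sources used here. As values, the authors deposited, per the file headers, group means of log2 normalized counts (a gene with no reads is at 0), a log2 fold change from group medians, and p-values of an equal-variance comparison with their FDR. Recomputing the FDR over 22320 genes differed by at most 4.78e-05 (relative).

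Differences are the Arid4bSCKO mean less the control mean. The deposited p-value and 4 degrees of freedom gave the standard errors and 95% intervals. Implied variances of the 19095 genes at a mean level of 1 or more were moderated with limma 3.58.1 in R 4.3.3 (squeezeVar, trend on level, robust), and p-values were adjusted by Benjamini-Hochberg over those genes. The code of this fit, and of the fit with neither level trend nor robust weights, was tested on simulated data with changes of 1 log2 or more. The other settings, and changes as small as those of the members, were not simulated. Separate litters are not stated for the pools, and p-values then measure only the spread between these samples, which may be technical.

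Transcript lengths are those of GENCODE vM21 (GRCm38), matched by RefSeq accession or symbol, for 93.1% of tested genes and all members. Where several transcripts matched a gene, the longest was taken, and which transcript the testes expressed was not examined. Starts in the table count from 0 and were raised by 1. All members are named, with full values for those called, the 3 with the highest level and the 3 with the largest standard error. Of other lists, up to 5 genes called in each direction with the smallest moderated p are named. Members and gene lists were chosen with earlier results of these data known. Alternatives changed the moderation, the minimum level and the centring.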

Additional observations from a re-analysis of the deposited data

How the results depend on the processing

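No paired analysis was possible because the table holds group means without a value per pool, and for the same reason no replicate could be left out and no replicate block fitted. With neither level trend nor robust weights, the moderated test called 0 of the 42 members (4 in the reported fit), 0 of the other mitotic genes (18, of which 17 lower and 1 higher) and 1 of the DNA synthesis genes (19). Centred on the median of all genes tested, which moves every difference by 0.04, it called 2 members and 11 other mitotic genes lower. Centred on a trend over transcript length, it called 2 members and 8 other mitotic genes, 6 lower and 2 higher. The cause of these shifts was not tested. Counts with no minimum level, with a minimum of 5 normalized counts and centred on a trend over level stayed within 1.5 times those reported. The median member difference stayed between -0.15 and -0.09 over its alternatives. No member passed the authors' p-values readjusted over genes at a level of at least 1 or of at least 5 counts (0 of 42 in each). Intervals rest on 3 pools a group, and those of 39 of the 42 members held 0. Many of these members had differences larger than their SD between pools, so passing that SD does not resolve a difference.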

Other observations

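The authors' log2 fold change compares group medians, and for 3 members it had the opposite sign to the difference of the means. These were Ccnb1 (-0.05 against 0.01), Cdca8 (0.07 against -0.02) and Bub3 (-0.01 against 0.03), all close to 0. For Ccnb2 the medians differed by -0.20 and the means by -0.02, both within its SD between pools of 0.19 or close to it. Over the 42 members 34 fold changes from medians were negative.

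Per kilobase of transcript in control, Ccnd2, Ccnd3, Top2a, Ube2c and Ccna2 ranked highest among the members, at 2630, 2090, 1950, 1910 and 1660 normalized counts. The lowest were Ccnd1, Cenpf, Cenpe and Espl1, at 133, 167, 181 and 181. Within the DNA synthesis list the E-type cyclin genes Ccne1 and Ccne2, singled out after their values were seen, stood at -0.18 and -0.29, and neither was called.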
